A study of Mus musculus with 24 samples.

Results

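*Cirbp* and *Rbm3* encode the cold-inducible RNA-binding proteins, and they were followed through the circadian day in the liver of mice with and without rhythmic *Bmal1* transcription. The members were taken by their gene names, which gave 2 genes of the 54733 in the deposited tables. RNA-seq of poly(A)-tailed RNA was performed on 24 liver libraries of male mice on a C57BL/6 background. WT mice were compared with ΔRRE mice, in which both ROR response elements (RREs) of *Bmal1* had been deleted by genome editing, and the study used a single mutant line unless stated otherwise. The livers were collected at circadian times (CT) 2, 6, 10, 14, 18 and 22, with 2 libraries per genotype at each time, so each group mean below has n = 2. The study's methods give a range of ages in weeks for the males whose tissues were collected, in constant darkness, and the labels do not tie an age to a library. Body temperature is not among the deposited values.

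CIRBP and RBM3 are small proteins that bind RNA through a single RNA recognition motif, followed by a glycine-rich tail. Their mRNAs accumulate at temperatures slightly below that of the body and decline with warming, while transcripts of heat shock chaperones do the opposite. In peripheral tissues, this makes the pair well-known readouts of the daily body temperature rhythm. CIRBP also binds transcripts of clock genes, *Clock* among them, and both proteins have been linked to the choice of polyadenylation sites.

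The relatedness of the 2 genes was examined first, because their reads are told apart by sequence. *Cirbp* (ENSMUSG00000045193) lies on the plus strand at chr10:80165985-80172786 of GRCm38 (mm10) and has 7 transcripts in GENCODE M21, of which 4 retain an intron. *Rbm3* (ENSMUSG00000031167) lies on the minus strand at chrX:8138975-8145880 and has 11 transcripts, of which 6 are coding. The main coding sequences, of 516 bases for *Cirbp* and 462 bases for *Rbm3*, were identical at 330 of 450 aligned bases (73.3%), and the longest run of bases they shared was 11. The codons of the RNP1 motif, the short stretch of the RNA recognition motif that contacts RNA, are shown in capitals with 5 codons on each side. They lie in exon 3 of both genes, at chr10:80170036-80170089 on the plus strand for *Cirbp* and at chrX:8144606-8144659 on the minus strand for *Rbm3*.
Cirbp: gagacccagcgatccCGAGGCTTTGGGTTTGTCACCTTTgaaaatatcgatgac
Rbm3: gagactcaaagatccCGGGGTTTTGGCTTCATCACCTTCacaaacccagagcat
Of the 54 bases printed, 36 were identical, and of the 24 bases of the motif, 18. The genes thus differ in every stretch longer than 11 coding bases. For *Rbm3*, a processed pseudogene on chromosome 1, Rbm3-ps, was listed at group means between 0.331 and 1.81 FPKM, and an antisense gene, Rbm3os, which overlaps *Rbm3* by 452 bases, had a mean of 0.117 FPKM. No annotated gene overlaps *Cirbp*.

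The sequence upstream of *Cirbp* is shown because it holds the letters of the mild-cold responsive element, TCCCCGCC, which is known from work on cold-induced *Cirbp* transcription. The 189 bases end 62 bases before the RefSeq start and before the first annotated exon there, at chr10:80167589-80167777 of GRCm38.p6 on the plus strand. The GENCODE transcript of *Cirbp* with the most upstream start has an intron over these bases. Capitals mark that element, GC boxes (GGGCGG) and CCAAT boxes (CCAAT) on either strand. A further GC box, 65 to 60 bases upstream of the start, is cut by the end of the printed bases and is not marked.
Cirbp promoter: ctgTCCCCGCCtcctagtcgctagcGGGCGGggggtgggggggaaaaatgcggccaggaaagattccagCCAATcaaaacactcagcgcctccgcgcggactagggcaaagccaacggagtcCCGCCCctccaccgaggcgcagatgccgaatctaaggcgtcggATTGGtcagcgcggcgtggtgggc
The element began 247 bases upstream of the start. In the RefSeq table of promoters, with 250 bases before and 50 after each start, 1768 of 32851 windows (5.38%) held TCCCCGCC on either strand. GGGCGG was found 3 times in the *Cirbp* window and in 35.7% of all windows, and CCAAT 2 times and in 37.4%. These motifs do not overlap each other in the window. The canonical E-box (CACGTG, 7.15% of windows), the core of the heat shock element (GAANNTTC, 7.86%), the RRE half-site (AGGTCA, 16.3%) and the cAMP response element (TGACGTCA, 1.79%) were not matched in it. A second *Cirbp* window, whose start lies 332 bases away, held 4 GC boxes and none of the other motifs. Such matches are letters in a window and were not tested for function. The table matched 1 of the 2 genes, and *Rbm3* was the gene not matched.

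Before the results, the libraries and labels were checked. The values are FPKM, fragments scaled by transcript length and by the mapped fragments of the library, and they summed to between 554170 and 624746 per library. Across the 11244 genes that averaged 1 FPKM or more, log2 values of replicate libraries correlated with r between 0.955 and 0.974. The median r of replicates was 0.968, against 0.956 between libraries of different groups, so replicates were only slightly more alike. The depth behind single values is unknown, since FPKM keep no counts. *Arntl*, the symbol of *Bmal1* in the tables, went from a mean of 12.9 FPKM at CT2 to 0.143 FPKM at CT10 in WT, and stayed between 2.30 and 3.61 FPKM in ΔRRE. Its fitted rhythm differed between the genotypes by limma's F-test (adjusted p = 0.0463), although not in 19 of the 24 fits that left out 1 library, nor without CT2, CT6, CT18 or CT22. All 10 hepatocyte markers were measured, with sums between 39602 and 56703 FPKM per library. Summed markers of Kupffer cells and macrophages (8 of 8 genes averaged 1 FPKM or more) ranged from 14.6 to 102 FPKM in WT and from 29.8 to 73.6 FPKM in ΔRRE. Markers of blood cells (6 of 10 genes) ranged from 467 to 1539 FPKM in WT and from 541 to 4464 FPKM in ΔRRE, and *Cd3e*, *Cd79a*, *S100a8* and *S100a9* were listed at 0 in some library, as was the cholangiocyte marker *Cftr*. In such bulk samples, fewer cells of a type and less RNA per cell cannot be told apart.

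*Cirbp* mRNA was high in the first part of the circadian day and low in the night, in both genotypes. In WT, the 2 libraries had 29.7 and 14.6 FPKM at CT2, 29.8 and 17.2 at CT6, 29.2 and 22.5 at CT10, 12.2 and 8.88 at CT14, 9.63 and 6.01 at CT18, and 11.9 and 14.1 at CT22. All WT libraries from CT2 to CT10 lay above all those from CT14 to CT22, and the 2 libraries of a group were more than 1.5-fold apart in 3 of 6 groups. The means fell in the order CT10, CT6, CT2, CT22, CT14 and CT18, and only CT2 and CT22 among the neighbours had ranges that did not overlap. In ΔRRE, the libraries had 24.3 and 16.5 FPKM at CT2, 30.2 and 30.7 at CT6, 29.9 and 31.5 at CT10, 15.4 and 10.1 at CT14, 7.80 and 10.3 at CT18, and 19.8 and 18.0 at CT22. Here CT6 and CT10 formed a plateau above all other times, the order of the means was again CT10, CT6, CT2, CT22, CT14 and CT18, and the neighbours CT6 and CT2, and CT22 and CT14, did not overlap. The mean at CT10 was 25.8 ± 4.70 FPKM (SD) in WT and 30.7 ± 1.18 in ΔRRE, against 7.82 ± 2.55 and 9.07 ± 1.79 at CT18. The highest mean was thus 3.31-fold the lowest in WT and 3.39-fold in ΔRRE.

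*Rbm3* mRNA peaked later, around the end of the subjective day, and moved over a smaller range. In WT, the libraries had 15.3 and 14.9 FPKM at CT2, 38.5 and 17.3 at CT6, 34.3 and 23.2 at CT10, 30.1 and 26.2 at CT14, 19.0 and 23.2 at CT18, and 13.9 and 19.7 at CT22. A single library, the first at CT6, stood 2.22-fold above its replicate and was the highest of the 24. The WT means fell in the order CT10, CT14, CT6, CT18, CT22 and CT2, and each overlapped with the next. In ΔRRE, the libraries had 17.4 and 16.9 FPKM at CT2, 22.7 and 25.2 at CT6, 28.2 and 31.6 at CT10, 32.0 and 25.1 at CT14, 27.3 and 25.7 at CT18, and 18.1 and 12.9 at CT22. In this genotype no group had replicates more than 1.5-fold apart, and all libraries from CT6 to CT18 lay above all those at CT22 and CT2. The order was CT10, CT14, CT18, CT6, CT2 and CT22, in which CT18 and CT6, and CT6 and CT2, did not overlap. The highest mean was 28.7 ± 7.87 FPKM (SD) in WT and 29.9 ± 2.44 in ΔRRE, both at CT10, which were 1.90-fold and 1.93-fold the lowest.

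**Figure D1:**
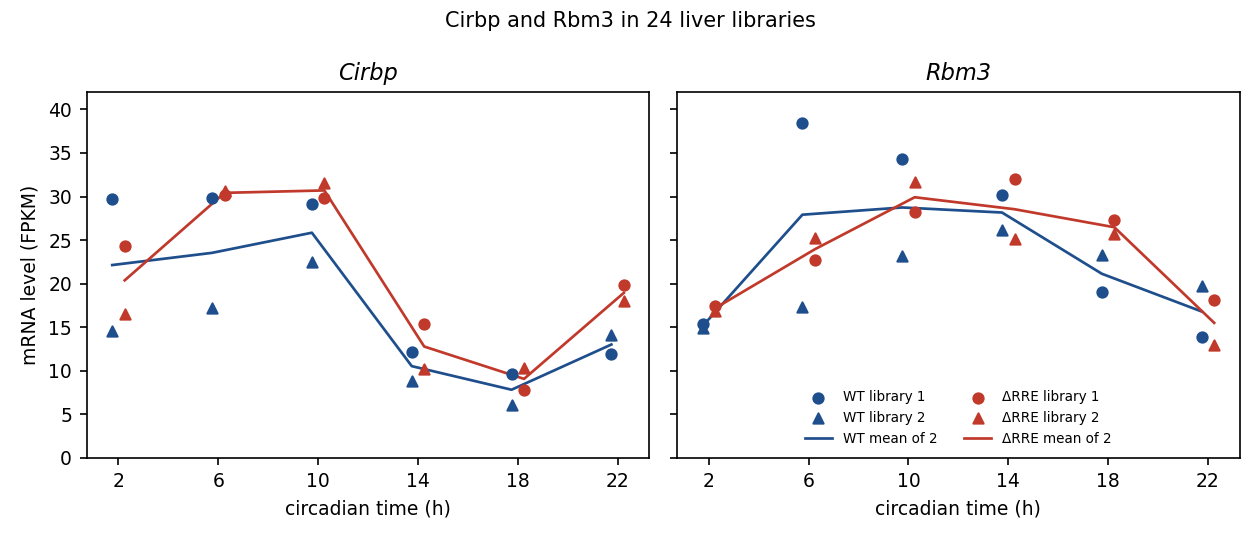
FPKM of *Cirbp* (left) and *Rbm3* (right) against circadian time in hours in 24 liver libraries, with WT in blue and ΔRRE in red, circles and triangles for the first and second library of a group, and lines through the means of 2. *Cirbp* falls from means of 25.8 (WT) and 30.7 (ΔRRE) FPKM at CT10 to 7.82 and 9.07 at CT18, while *Rbm3* stays at 21.1 and 26.5 FPKM at CT18.

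The rhythms were then fitted as 24 h waves to log2(FPKM + 0.1), with amplitude as the distance from the mean to the peak of the wave. A gene was called at a Benjamini-Hochberg adjusted p under 0.05 over all 11244 genes in limma's F-test. In WT, the amplitude of *Cirbp* was 0.85 ± 0.157 (SE, log2), with a peak at CT5.98 ± 0.705 h (adjusted p = 0.0130, limma), and the exact permutation test over the time labels of the 12 libraries gave p = 0.00550 (two-sided). The amplitude of *Rbm3* was 0.48 ± 0.127, with a peak at CT11.4 ± 1.0 h, and did not pass (adjusted p = 0.0632, limma), whereas its exact permutation p was 0.0328. In WT, 10.3% of all genes tested were called, so 1 of the 2 members was among them. *Cirbp* did not pass without CT18 (adjusted p = 0.0975, limma). Without the first WT library at CT6, *Rbm3* passed as well, with an amplitude of 0.49 and an adjusted p of 0.0140 (limma). That library had summed Kupffer cell and macrophage markers of 102 FPKM, the highest sum of the 24 libraries, and its replicate 32.7 FPKM; the part of these cells in the *Rbm3* value was not tested.

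In ΔRRE, both members were called, beside 4.57% of all genes. The amplitude of *Cirbp* was 0.81 ± 0.140 (SE, log2), with a peak at CT6.03 ± 0.658 h (adjusted p = 0.0154, limma; exact permutation p = 0.00367). That of *Rbm3* was 0.49 ± 0.0818, with a peak at CT12.1 ± 0.644 h (adjusted p = 0.0137, limma; exact permutation p = 0.000917). Some of these calls were lost without a time point or library. *Cirbp* did not pass without CT6, CT14 or CT18, with adjusted p-values of 0.0719, 0.0557 and 0.170, or without the first library at CT18 (0.0530), nor *Rbm3* without CT2 or CT10, with 0.0562 and 0.0668 (limma). The study's own definition of a rhythmic gene asks for a p under 0.3, a highest mean over 1.5 times the lowest, and a limited spread within time points. With the harmonic p standing in for that of the study, both members met it in both genotypes, as did 37% of all genes in WT and 35.4% in ΔRRE.

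In 1 wave fitted to both genotypes together, both members were called, beside 30.6% of all genes tested. *Cirbp* had an amplitude of 0.83 ± 0.107 (SE, log2), a 3.16-fold range from trough to peak, and peaked at CT6.00 ± 0.492 h (adjusted p = 1.61e-05, limma). *Rbm3* had an amplitude of 0.48 ± 0.0762, a 1.95-fold range, and peaked at CT11.7 ± 0.602 h (adjusted p = 0.000205, limma). Only 2.5% of all genes had a larger amplitude than *Cirbp* and 8.90% a larger one than *Rbm3*, against a median amplitude of 0.17 over all genes. Leaving out any library or time point kept both calls in this fit.

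Whether the members followed the same wave was tested through the ratio of *Cirbp* to *Rbm3* in each library, in which factors common to both genes of a library cancel. A rhythm in this ratio shows that the waves differ in amplitude, in time or in both, and does not test the offset in time alone. FPKM are scaled by transcript length, so the 2 levels can be set side by side. How reads matching several genes were assigned is not given, so their ratio is approximate. In WT, the mean log2 ratio went from 0.46 ± 0.70 (SD) at CT2 to -1.45 ± 0.68 at CT18, that is, from 1.37-fold more *Cirbp* than *Rbm3* to 0.365 times as much. In ΔRRE, it went from 0.35 ± 0.0922 at CT6 to -1.55 ± 0.35 at CT18. The highest log2 ratio of a library at CT14 or CT18 was -0.975, and the lowest at any other time was -0.479. The wave of the ratio had an amplitude of 0.91 ± 0.192 (SE) with a peak at CT3.87 in WT (exact permutation p = 0.00253), and of 0.95 ± 0.189 with a peak at CT3.98 in ΔRRE (exact permutation p = 0.00348). Over all libraries, the mean log2 ratio was 0.21 higher in ΔRRE, a difference within the spread between libraries (exact permutation p = 0.148, two-sided). Without the first WT library at CT2 or at CT18, it was 0.30 or 0.29, with exact permutation p-values of 0.0273 and 0.0395.

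**Figure D2:**
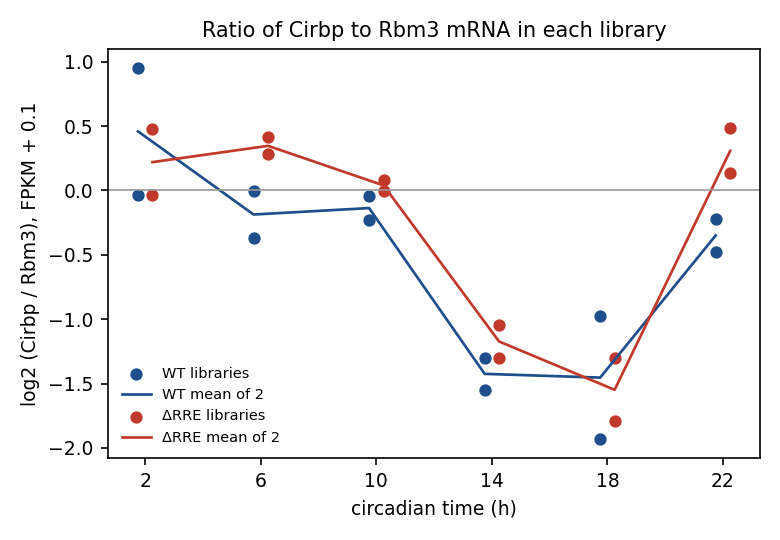
Log2 ratio of *Cirbp* to *Rbm3* (FPKM + 0.1) against circadian time in hours, with a point for each of the 24 libraries and lines through the means of 2 (WT blue, ΔRRE red); the grey line marks equal levels. The ratio is lowest at CT18, with means of -1.45 in WT and -1.55 in ΔRRE.

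The genotypes were compared next, since the mutants lack the *Bmal1* rhythm. Neither the waves nor the levels of the 2 genes passed a test of the difference. The amplitude of *Cirbp* in ΔRRE minus that in WT was -0.04 ± 0.223 (SE, log2) and the peaks were 0.0495 ± 1.03 h apart (adjusted p = 0.9999, limma; exact permutation p = 0.983). For *Rbm3*, the amplitudes differed by 0.0015 ± 0.158 and the peaks by 0.681 ± 1.25 h (adjusted p = 0.9999, limma; exact permutation p = 0.885). Of all genes tested, 0.00889% were called for a rhythm difference, which was *Arntl* alone, and 319 genes had an unadjusted p under 0.05. With these errors, a shift of *Cirbp* by an hour could not have been told from none.

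The level of *Cirbp* was higher in ΔRRE at 5 of 6 time points, by 0.28 ± 0.127 (SE, log2; 95% interval from 0.0136 to 0.54) in a model with a separate mean for each time point. This did not pass (adjusted p = 0.531, limma; exact permutation p = 0.0588). The mean over 12 libraries was 17.1 FPKM in WT and 20.4 in ΔRRE. The level of *Rbm3* differed by 0.06 ± 0.109 (95% interval from -0.163 to 0.29), with 4 of 6 time points higher in ΔRRE (adjusted p = 0.920, limma; exact permutation p = 0.599). No gene was called for a level difference in limma (0% of those tested), although 1002 had an unadjusted p under 0.05. The median difference over all genes was 0.04, and 7362 of the 11244 genes tested were higher in ΔRRE, so this direction was the common one.

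At single time points, the ΔRRE libraries of *Cirbp* lay above those of WT without overlap at CT6, CT10 and CT22. The shares of all genes tested whose 2 groups did not overlap were 28%, 32.7% and 37.1% there, so such separation of 2 against 2 libraries is common. For *Rbm3*, the groups did not overlap at CT2 and CT18, beside 29.6% and 31.2% of all genes. The largest differences of the means were 0.54 (95% interval from -0.175 to 1.26) for *Cirbp* at CT22 and 0.33 (from -0.285 to 0.94) for *Rbm3* at CT18, and the intervals of both genes held 0 at all 6 times. In the test for a difference at any time point, 0.0356% of all genes were called (4 genes, with 473 at an unadjusted p under 0.05), and neither member was among them (adjusted p = 0.99996 for both, limma).

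**Figure D3:**
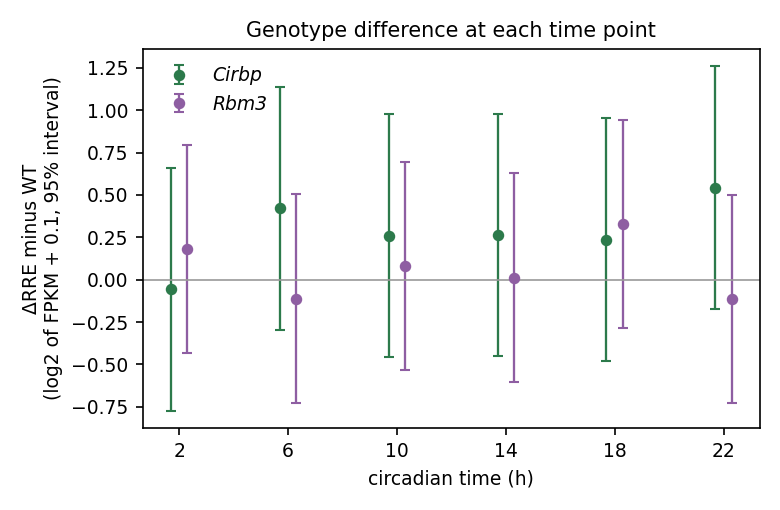
Difference in log2(FPKM + 0.1) between ΔRRE and WT at each circadian time in hours, for *Cirbp* (green) and *Rbm3* (purple), with 95% intervals from limma. All 12 intervals contain 0, and the widest gap is 0.54 for *Cirbp* at CT22.

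The members were not each other's nearest neighbours. Over the 24 libraries, log2 values of *Cirbp* and *Rbm3* had a Pearson's r of 0.114, and *Rbm3* ranked 5094th of 11243 genes in likeness to *Cirbp*. This r and those that follow describe libraries that share time points, and no test was run on them. The genes most like *Cirbp* were *Tmem183a* (r = 0.911), *Spg21* (0.906), *Rbm17* (0.903), a splicing factor with an RNA recognition motif, *Wdtc1* (0.903) and *Srsf5* (0.895), a serine/arginine-rich splicing factor. Their shared waves peaked between CT5.24 and CT6.92, with amplitudes between 0.19 and 0.43, all smaller than that of *Cirbp*. *Srsf5*, for example, was highest at CT6 in WT (113 FPKM) and at CT10 in ΔRRE (123 FPKM), and lowest at CT18 in both (61.7 and 71.5 FPKM).

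The genes least like *Cirbp* were *Pde4a* (r = -0.895), a phosphodiesterase of cAMP, *Hsph1* (-0.884), a heat-inducible chaperone of the HSP110 family, and *Fgf1* (-0.869), a growth factor. They peaked between CT17.6 and CT18.3. *Hsph1* had 9.18 and 18.9 FPKM at CT2 in WT, 8.88 and 6.44 at CT6, 4.92 and 10.6 at CT10, 43.2 and 39.4 at CT14, 26.3 and 48.2 at CT18, and 14.3 and 10.2 at CT22. In ΔRRE it had 8.99 and 21.9 FPKM at CT2, 5.33 and 3.41 at CT6, 4.19 and 4.49 at CT10, 21.3 and 61.4 at CT14, 28.4 and 46.5 at CT18, and 10.4 and 10.9 at CT22. In WT its 4 highest libraries were those at CT14 and CT18, and in ΔRRE the 3 highest were among them, with the first at CT14 below the second at CT2. Its means were highest at CT14 and CT18 in both genotypes, the 2 times at which *Cirbp* was lowest or next to lowest.

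Among the genes most like *Rbm3* were *Ung* (r = 0.829), a uracil-DNA glycosylase, *Gm48583* (0.818), *Mknk2* (0.806), a kinase of the translation factor eIF4E, and *Flot2* (0.787). These 4 peaked between CT11.1 and CT12.7, and *Ung*, *Gm48583* and *Mknk2* had larger amplitudes (0.78, 0.96 and 0.74) than *Rbm3*. The genes least like it were *Neil1* (-0.846), another DNA glycosylase, *Tspan33* (-0.811) and *Hist1h2bg* (-0.811), a histone gene with near-identical copies, so that its value is uncertain. These 3 peaked between CT23.2 and CT0.198.

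Genes with related functions were then counted from lists of the pathway, beside the 30.6% of all genes called in the shared wave. Of the 20 heat-inducible chaperones and co-chaperones, 17 were called, with a median amplitude over the list of 0.55. All 17 peaked between CT12 and CT24, as did 1350 of the 3437 genes called. The peaks of the 17 chaperones ranged from CT15.2 to CT19.8. The largest were *Hspa1b* (amplitude 1.79 ± 0.362 SE, peak CT16.7) and *Hspa1a* (1.59 ± 0.325, CT16.1), near-identical HSP70 genes whose reads may be shared. *Hsph1* (1.31 ± 0.223, CT17.6) and *Hspb1*, a small heat shock protein (1.15 ± 0.143, CT19.8), followed. *Hspb1* went from 54.8 FPKM at CT18 to 12.4 at CT10 in WT and from 58.9 to 12.2 in ΔRRE. *Hsf1*, the transcription factor of the heat shock response, was not called (0.09 ± 0.0710; adjusted p = 0.602, limma). The 17 called genes thus peaked 9.20 to 13.8 h after the fitted peak of *Cirbp*. That of *Rbm3*, at CT11.7, lay closer to their peaks, so this lag does not hold for both members.

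**Figure D4:**
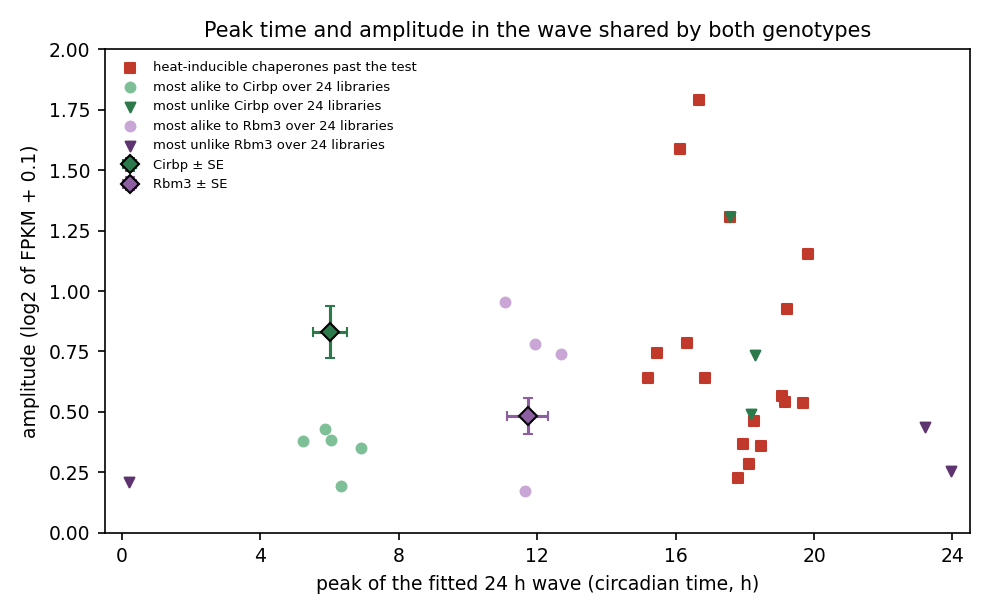
Amplitude (log2 of FPKM + 0.1) against peak time (circadian time in hours) of the wave shared by both genotypes, for *Cirbp* and *Rbm3* (diamonds, ± SE), the genes named as most and least like them, and the 17 heat-inducible chaperones that were called (red squares). *Cirbp* lies at CT6.00, *Rbm3* at CT11.7 and the chaperones between CT15.2 and CT19.8.

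Among other proteins with related RNA recognition motifs, 10 of the 22 tested of 23 were called, 7 with a peak from CT0 to CT12 and 3 after it, and the median amplitude of the list was 0.16. *Hnrnpd* (amplitude 0.31 ± 0.0656 SE, peak CT9.04) and *Hnrnpdl* (0.30 ± 0.0576, CT8.99), which encode binders of AU-rich RNA, peaked between *Cirbp* and *Rbm3*. *Rbm14* (0.54 ± 0.10, CT16.5), a coactivator, peaked in the night with the chaperones. Each of the 10 had a smaller amplitude than *Cirbp*, and *Rbm14* alone exceeded *Rbm3*.

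Of the 4 tested of 8 cold shock domain proteins, a family that shares a response to cold but no RNA recognition motif with the members, only *Carhsp1* was called, with an amplitude of 0.34 ± 0.0317 (SE) and a peak at CT6.40. Of the 18 temperature-responsive splicing factors and their kinases, 5 were called, among them *Srsf5* (0.38 ± 0.0674, CT5.24), *Tra2a* (0.41 ± 0.0806, CT20.8), *Srsf1* (0.23 ± 0.0554, CT0.214) and the kinase *Clk3* (0.23 ± 0.0533, CT18.8). Their peaks were spread over the day, 2 before CT12 and 3 after it. Of the 17 tested of 18 polyadenylation site factors, 1 was called, *Wdr33* of the CPSF complex (0.20 ± 0.0351, CT1.97). The shares called in these 3 lists were 25%, 27.8% and 5.88% of the genes tested, and their difference from that of all genes was not tested.

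All 16 genes of the clock list were called in the shared wave, with a median amplitude of 1.52, and the 4 largest were *Dbp* (3.39 ± 0.268 SE, CT10.9), *Ciart* (3.14 ± 0.227, CT12.9), *Nr1d1* (2.93 ± 0.191, CT7.80) and *Npas2* (2.91 ± 0.227, CT1.06). A call in this wave does not show a rhythm in each genotype. *Arntl*, for example, had an amplitude of 2.57 in WT and of 0.29 in ΔRRE, where it was not called (adjusted p = 0.156, limma). *Clock*, whose transcript CIRBP is known to bind, had an amplitude of 0.62 ± 0.105 and peaked at CT23.4, with means from 6.89 FPKM at CT2 to 2.14 at CT10 in WT and from 7.30 at CT22 to 3.43 at CT10 in ΔRRE. The mean of *Clock* mRNA was thus lowest at CT10, where that of *Cirbp* was highest, in both genotypes. However, the *Cirbp* libraries at CT10 and CT6 overlapped in both genotypes, and its fitted peak was at CT6.00. A relation between the 2 transcripts was not tested. *Cirbp* had a larger amplitude than *Clock*, and *Rbm3* a smaller one. No gene of any list was called for a level difference, and *Arntl* was the only one called for a rhythm difference. None of the 8 Kupffer cell and macrophage markers and none of the 6 tested blood cell markers was called in the shared wave, whereas 5 of 10 hepatocyte, 4 of 8 endothelial, 3 of 5 stellate and 2 of 3 cholangiocyte markers were.

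Finally, it was asked whether the members varied together between replicates at 1 time point. The first library of a group minus the second was taken on the log2 scale in each of the 12 groups. The labels do not say what the replicate numbers stand for, and whether they mark a batch is unknown. Between pairs of groups, correlations over 11244 genes had a median of 0.067, and 20 of 66 exceeded 0.1. In WT, the first library had the higher hepatocyte marker sum at each time. In ΔRRE, the second library did at CT6, CT14, CT18 and CT22. *Cirbp* and *Rbm3* differed in the same direction in 10 of 12 groups, and in 9 of 12 with median-of-ratios scaling. To be independent of the numbering, the correlation was taken about 0 and tested over all sign flips, a choice made after seeing the data. It was 0.51 for *Cirbp* and *Rbm3* (exact permutation p = 0.0845), -0.58 for *Cirbp* and *Hsph1* (exact permutation p = 0.0806) and -0.19 for *Rbm3* and *Hsph1* (exact permutation p = 0.428). *Hsph1* is among the genes least like *Cirbp* over these same libraries, a ranking that already holds the replicate differences. Its relation with *Cirbp* is therefore not independent of that ranking. None of the 3 relations passed, with adjusted exact permutation p-values of 0.127, 0.127 and 0.428. Without the 2 groups with the largest gaps of the first gene, the values were 0.37, -0.69 and -0.33. The widest gap of a member between replicates was that of *Rbm3* at CT6 in WT (1.15 on the log2 scale), where *Cirbp* differed by 0.79 and *Hsph1* by 0.46 in the same direction. The next was that of *Cirbp* at CT2 in WT (1.02), where *Rbm3* differed by 0.04 and *Hsph1* by -1.04.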

How the data were processed

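The labels give genotype, time and replicate number. Per the submitters' processing notes, the authors used Trimmomatic 0.39, HISAT2 2.1.0, StringTie 1.3.5 and mm10, and deposited 1 table of FPKM per library, without pooling replicates. Libraries were directional, and how reads matching several genes were assigned is not given in the sources used here. The study's BIO_CYCLE was replaced by harmonic regression in limma 3.58.1 (R 4.3.3) on log2(FPKM + 0.1), with a trended prior, for genes averaging 1 FPKM or more, so that fold changes of low genes are understated. Exact permutation tests were run in Python 3.11.15 with NumPy 2.4.6. They used all arrangements of time labels for a rhythm, and all divisions within time points for a genotype difference. For the replicate co-variation, they used all sign flips of the differences. The main limma tests, and the exact permutation tests of a rhythm and of a level difference, were tried on simulated data. The replicate co-variation, the likeness ranking, the list counts and the sequence steps were not. The study's methods give n = 2 per genotype and time for these livers, and the labels do not tie a library to an animal, so p-values measure the spread between libraries. No pair of libraries shared more than 0.0380% of its nonzero values.

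Members, gene lists and tests were chosen with earlier results of these data known. Named genes were the members, *Arntl*, the 5 most and 3 least like each member, up to 4 called genes of largest amplitude per list, *Clock*, and list genes called between genotypes; *Hsf1* was chosen after its values were seen. A combined table with the same values was not used. A few genes that these rules name are not reported here.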

Additional observations from a re-analysis of the deposited data

How the results depend on the processing

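The shared waves of *Cirbp* and *Rbm3* passed under every alternative, among them 1 or 0.01 FPKM added, no filter, a filter at a mean of 5 FPKM, rescaling by the median of ratios, a prior without trend and the linear scale. Peaks moved between CT5.04 and CT6.74 for *Cirbp* and between CT11.1 and CT12.4 for *Rbm3*. Calls within a genotype were less firm, and the cause was not tested. In WT, *Cirbp* did not pass with no filter (amplitude 0.85, adjusted p = 0.0751, limma), with time point as a factor (0.87, 0.0882), on the linear scale (9.32 FPKM, 0.0555) or without CT18 (0.76, 0.0975), and *Rbm3* passed with a shared spread (0.48, 0.0181), by the study's 3 criteria (0.48) and without CT6 (0.48, 0.0199). In ΔRRE, *Cirbp* did not pass with no filter (0.81, 0.0841) or without CT6 (0.87), CT14 (0.76) or CT18 (0.66), and *Rbm3* did not with no filter (0.49, 0.0571), time point as a factor (0.48, 0.0507) or without CT2 (0.50) or CT10 (0.50).

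Without single libraries, amplitudes ranged from 0.74 to 0.999 for *Cirbp* and 0.44 to 0.56 for *Rbm3* in WT, and from 0.72 to 0.88 and 0.41 to 0.54 in ΔRRE; *Cirbp* did not pass without the first ΔRRE library at CT18 (adjusted p = 0.0530, limma). The ratio between genotypes ranged from 0.17 to 0.30, with an exact permutation p of 0.0273 without the first WT library at CT2 and 0.0395 without the first at CT18. The level difference of *Cirbp* ranged from 0.22 to 0.36 without single libraries and passed in none of them; no genotype difference of a member did. Centred, and so dependent on the numbering, replicate differences had Pearson's r = 0.41 (*Cirbp* and *Rbm3*), -0.41 (*Cirbp* and *Hsph1*) and -0.03 (*Rbm3* and *Hsph1*), and Spearman's rho = 0.28, -0.39 and -0.20 (adjusted permutation p of at least 0.287).

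Pairing by replicate number was unclear (66 group pairs, r from -0.138 to 0.305, 20 over 0.1). With the number as a replicate block, no call of a member changed: the adjusted p-values of the rhythms in WT were 0.00464 (*Cirbp*) and 0.0631 (*Rbm3*), the level difference of *Cirbp* had 0.402 (limma), and 1189 genes were called in WT, 556 in ΔRRE, 3562 in the shared wave and 0 for a rhythm difference, against 1157, 514, 3437 and 1.

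Counts over all genes moved more than 1.5-fold: calls in WT were 519 with no filter, 361 with time point as a factor, 4156 by the 3 criteria, 524 to 731 without a time point, 770 without the first library at CT2 and 740 without the second at CT10. In ΔRRE they were 197 with no filter, 319 on the linear scale, 957 with a shared spread, 3985 by the 3 criteria, 142 to 257 without CT10, CT14 or CT18, and 298 to 330 without a library of CT14 or CT18. The test at any time point gave 40 with no filter, 2 with the filter at 5 FPKM, and 8 and 10 without the first ΔRRE library at CT6 or the second at CT14. Without the second WT library at CT6, or without CT6, 1 gene was called for a level difference. The rhythm difference of *Arntl* did not pass in 19 of 24 fits without a library (adjusted p up to 0.198, limma), in 4 of 6 without a time point (up to 0.9998, without CT2), or with 0.01 FPKM added, no filter, a prior without trend or the block (0.0731 to 0.221). FPKM keep no depth, so counting error is unknown, and 2 libraries per group limit every comparison.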
